A study of Mus musculus with 4 samples.

Results

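The complement genes described here are 9 genes of the 32285 in the count table: the C1q chains C1qa, C1qb and C1qc, the central component C3, the component C4b, the anaphylatoxin receptors C3ar1 and C5ar1, and the regulators Cd55 and Serping1. They were taken by symbol as components, receptors and regulators of the complement system, and each symbol matched 1 gene of the mouse annotation. A wider list of 50 further complement genes served as the rest of the pathway. The data were 4 single-cell RNA libraries from male C57BL/6N mice aged 10 months. The sham isotype mice had sham surgery and an isotype control antibody, and the stroke isotype mice had a distal middle cerebral artery occlusion and the same isotype antibody. The stroke anti-VCAM1 and stroke anti-VLA4 mice had the occlusion and an antibody to either VCAM1, which endothelium displays when activated to hold leukocytes, or its leukocyte partner, the integrin VLA-4. Antibodies were given for 10 weeks in all 4 groups. Each library held the pooled infarct core and about 2 mm of surrounding cortex of 4 to 5 mice, from cells stained for CD31 and CD45, so 1 library stood for each group. Differences between mice, between libraries and between groups therefore cannot be told apart, and every interval below covers counting error only.

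Complement is a cascade of plasma and tissue proteins that tags and destroys targets. C1q, built from the A, B and C chains, binds antibodies, dying cells and synapses and starts the classical pathway, which cleaves C4 and then C3. Fragments of C3 opsonize targets, and the small fragments C3a and C5a act on the receptors encoded by C3ar1 and C5ar1. Cd55 speeds the decay of C3 convertases on the cell surface, and Serping1 encodes the C1 inhibitor. In brain, microglia are a main source of C1q, and astrocytes are known to induce C3 and C4 in injury.

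After filtering, 15212 cells remained, with 1514 in the sham isotype library, 2832 in the stroke isotype library, 4657 in the stroke anti-VCAM1 library and 6209 in the stroke anti-VLA4 library. Total UMIs (unique molecular identifiers, the counted transcripts) ran from 10008987 in the sham isotype to 34721356 in the stroke anti-VLA4 library, and median UMIs per cell from 4515 to 5456.5. Clustering without the complement genes gave 23 clusters, which were named from marker genes. In the order sham isotype, stroke isotype, stroke anti-VCAM1 and stroke anti-VLA4, which is kept for all values below, the classes held 690, 1474, 1812 and 2458 microglia-like cells, 115, 192, 59 and 94 border-macrophage-like cells, 480, 564, 1969 and 2491 endothelial-like cells, and 73, 248, 111 and 202 T-cell-like cells. Cells of 3 clusters, 1707 in all, stayed unnamed. The largest, cluster 4 with 1155 cells, was led by Gkn3 and Alpl and carried all 14 endothelial markers. It stayed outside the endothelial-like class because a marker of another class was also among its 10 leading genes. The unnamed cluster 17, of 52, 112, 55 and 27 cells, was led by Il1r2, Ifitm6 and Plac8, and carried both monocyte and dendritic cell markers.

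The sham and stroke isotype libraries shared 59 cell barcodes, against 1 to 8 for any other pair. In 56 of these pairs the shallow copy had under 5% of the UMIs of the deep copy, and in 55 the deep copy was in the sham isotype library. The stroke isotype copies fell on 27 microglia-like, 7 border-macrophage-like and 10 endothelial-like cells and on 13 cells of cluster 17. Results without every shared barcode are given where they differ. In the border-macrophage-like cells, a second feature set 1 library apart: the 14 endothelial markers summed to 249.4, 290, 931 and 4822 CPM (counts scaled to the class's total, the unit of all levels below), with 14 of 14 detected in the stroke anti-VLA4 library and 8 of 14 in the sham isotype library. The 12 microglia markers, all detected, summed to 4328, 4380, 4782 and 2828 CPM in these cells, lowest in the same library, against 15147 to 15979 CPM in microglia-like cells. The part of either signal in the results on those cells, the C1q levels and anti-VLA4 ratios among them, was not tested.

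The transcripts are counted at their 3′ ends, so levels of different genes are not scaled by length and are compared only within a gene. The C1q chains, the 3 polypeptides of the C1q molecule, were highest in microglia-like cells. C1qa stood at 5009, 5334, 5758 and 5770 CPM there and at 4115, 4097, 4261 and 4536 CPM in border-macrophage-like cells. Each microglia-like value lay above each border-macrophage-like value. C1qb gave 4499, 4595, 5047 and 5068 CPM in microglia-like cells against 3691, 3498, 3664 and 3753 CPM in border-macrophage-like cells. C1qc gave 3414, 3328, 3723 and 3621 CPM against 2718, 2372, 2619 and 2835 CPM. Ranges did not overlap for any of the 3 chains, with microglia-like cells the higher class, while 28.9% of all 14221 genes measured had microglia-like cells above with the ranges apart. Microglia-like cells made up 42.3% of the kept cells and held 91.8% of the C1qa UMIs, 91.7% of those of C1qb and 92.2% of those of C1qc. Together the chains took 1.29%, 1.33%, 1.45% and 1.45% of all UMIs of microglia-like cells, and between 0.997% and 1.11% in border-macrophage-like cells.

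**Figure D1:**
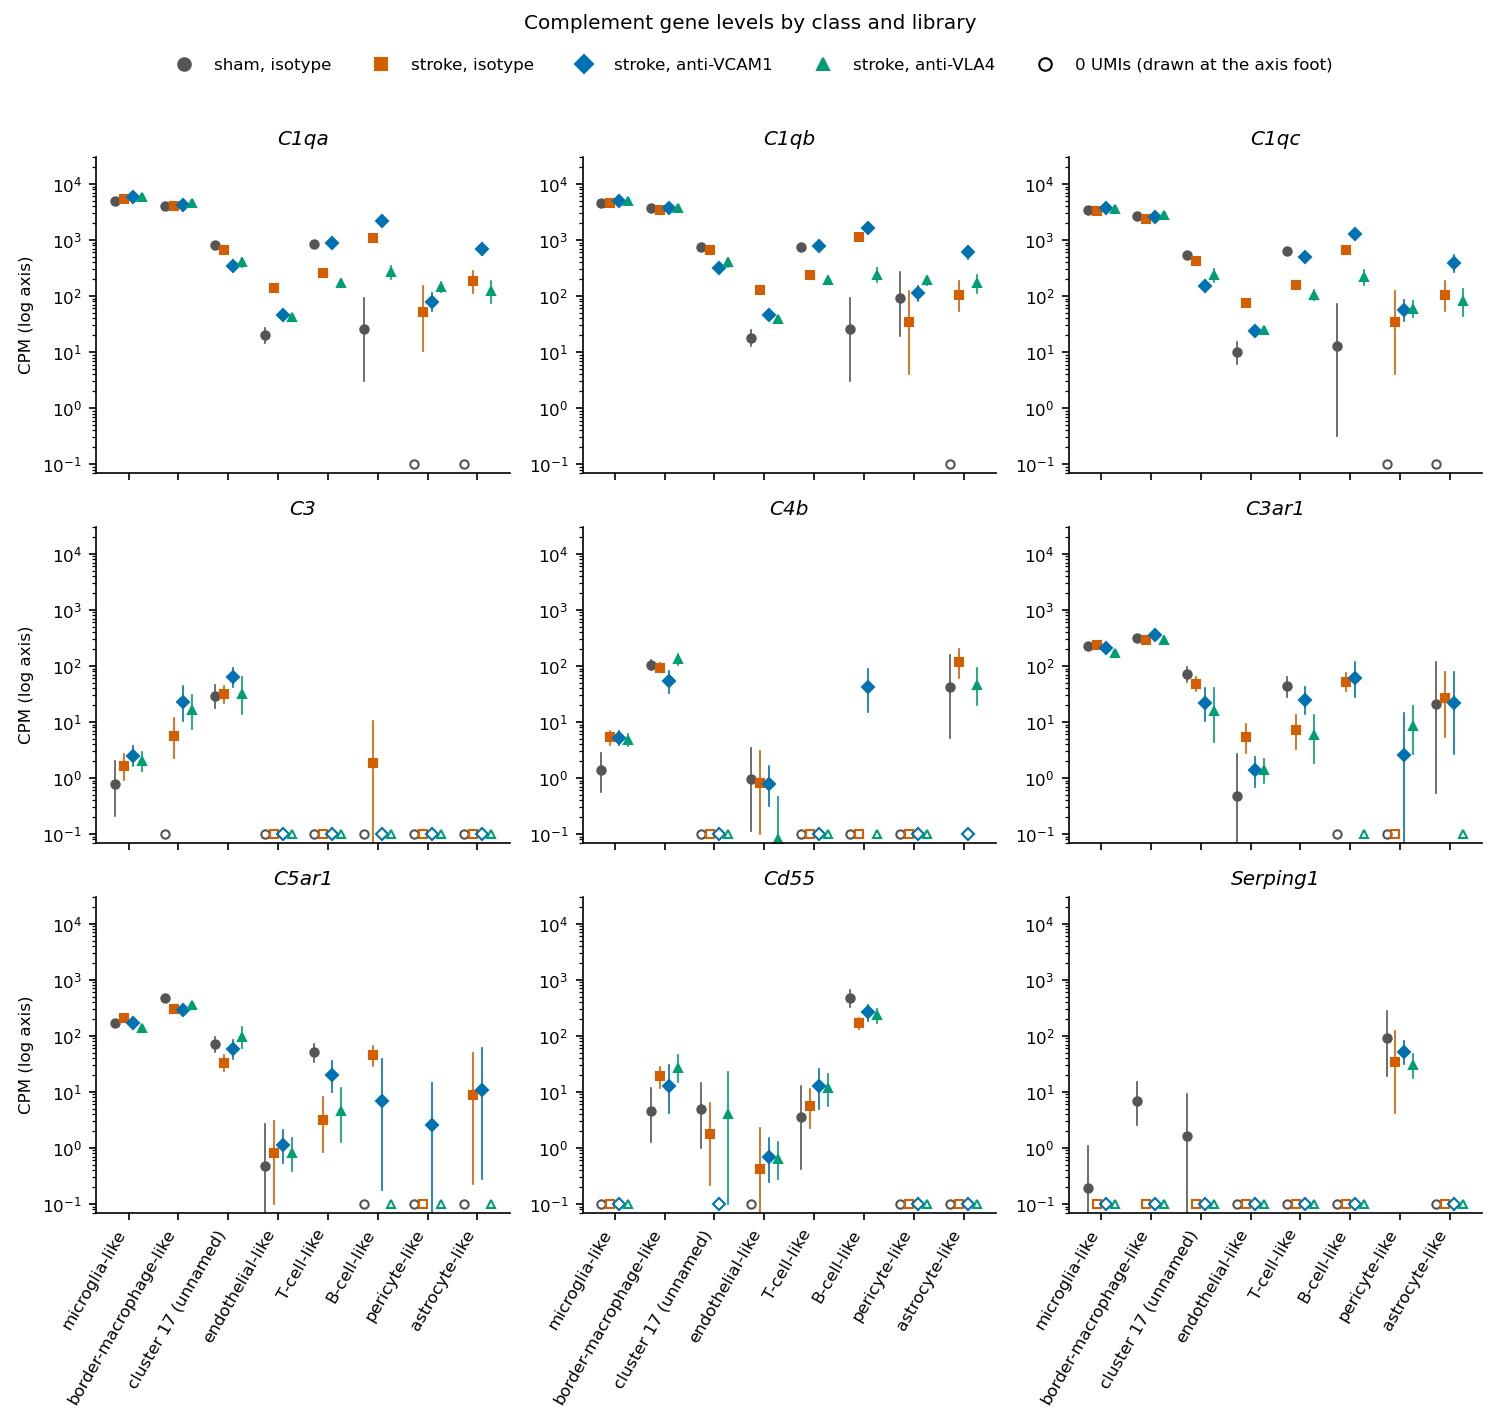
Level of each of the 9 complement genes (CPM, log scale) in the named cell classes and the unnamed cluster 17; each point is 1 library with its 95% counting interval, and open points at the axis foot are 0 UMIs. The C1q chains lie highest in microglia-like cells (C1qa 5009 to 5770 CPM), C3ar1 and C5ar1 in border-macrophage-like cells, Cd55 in B-cell-like and Serping1 in pericyte-like cells.

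The genes of the 3 chains stand side by side on chromosome 4 of GRCm38 (the mm10 build), all on the minus strand: C1qb at chr4:136880129-136886187, C1qc at chr4:136889804-136893065 and C1qa at chr4:136895917-136898803, within 18.7 kb. The promoters of C1qb and C1qc are shown, as none was held for C1qa in the set used. They are RefSeq sequences of GRCm38.p6, running from 250 bases before to 50 bases after the RefSeq start, on the minus strand (chr4:136886151-136886450 and chr4:136892865-136893164). Capitals mark GAGGAA or its reverse complement TTCCTC, the core of PU.1 sites. PU.1 is a transcription factor that macrophages depend on.
C1qb: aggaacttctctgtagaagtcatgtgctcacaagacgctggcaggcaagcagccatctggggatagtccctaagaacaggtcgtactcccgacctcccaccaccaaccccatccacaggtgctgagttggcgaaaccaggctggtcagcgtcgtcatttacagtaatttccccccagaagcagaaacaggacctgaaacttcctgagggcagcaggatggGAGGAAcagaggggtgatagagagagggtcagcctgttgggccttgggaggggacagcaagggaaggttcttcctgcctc
C1qc: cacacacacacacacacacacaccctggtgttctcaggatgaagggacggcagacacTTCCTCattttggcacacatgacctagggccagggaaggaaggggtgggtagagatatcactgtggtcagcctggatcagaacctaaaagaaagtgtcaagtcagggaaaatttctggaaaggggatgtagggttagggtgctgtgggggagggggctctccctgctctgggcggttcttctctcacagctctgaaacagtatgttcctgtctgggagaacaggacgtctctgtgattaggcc
The match in C1qb covered bases -30 to -25 from the start and that in C1qc, on the other strand, bases -193 to -188. Of all 32851 promoters of the same length, 28.3% held these letters on either strand, so the matches are a description of the sequence only. RefSeq held a promoter for 6 of the 9 genes in the table used, and none for C1qa, C4b or Serping1.

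Within microglia-like cells, the chains kept nearly constant proportions. C1qa gave 38.8% to 40.2% of the C1q UMIs, C1qb 34.7% to 35.1% and C1qc 25.04% to 26.4% over the 4 libraries. After each cell was thinned to 1000 UMIs, C1qa was seen in 91.0%, 91.3%, 92.4% and 91.5% of microglia-like cells (96.99% to 97.8% unthinned). In T-cell-like cells, which do not make C1q, the thinned share was 12.5%, 10.3%, 14.0% and 7.14%, and a share at that level is read as background. Median depth before thinning was 5196 to 7340 UMIs in microglia-like and 3859 to 5726 UMIs in T-cell-like cells.

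Microglia-like clusters differed more among themselves in C1q than the libraries did. Cluster 20, led by Crybb1 and Tmem119, had C1qa at 8486 to 11690 CPM, and cluster 11, led by Gpr84 and Syngr1 and also marked by Trem2, had 7273 to 8470 CPM, each over the 3 stroke libraries with 20 cells or more. Clusters 0, 2 and 7 had 5270 to 6202 CPM over the 4 libraries. Clusters 6 and 8, led by the unnamed transcript Gm50035, had only 1727 to 1888 CPM and 1595 to 2233 CPM. Median depth was 2293 and 2639.5 UMIs per cell in clusters 6 and 8, against 6039 to 8240 UMIs in clusters 0, 2, 7 and 11. Cluster 20, with the most C1qa, was also shallow at 2971 UMIs. The part of depth in these levels was not tested. The ranges of the pairs 0 and 2, 2 and 7, and 6 and 8 overlapped, and those of clusters 6 and 8 lay below all other microglia-like clusters. C1qb and C1qc followed the same order of cluster groups by their medians, though the C1qc ranges of cluster 11 and of clusters 0 and 2 overlapped, with C1qb at 8501 to 10625 CPM in cluster 20 and 1182 to 1372 CPM in cluster 6.

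Stroke and antibody treatment were accompanied by small differences in C1q in microglia-like cells. A gene was called changed when its CPM differed at least 1.5-fold and the libraries compared held 20 UMIs or more of it, and log2 ratios are of CPM + 1, with 95% counting intervals computed without the added 1. The stroke isotype to sham isotype log2 ratio was 0.09 (0.07 to 0.11) for C1qa, 0.03 (0.01 to 0.05) for C1qb and -0.04 (-0.06 to -0.01) for C1qc. The sign of the C1qc value turned with TMM size factors (0.02), and that of C1qb when each cell was given the same weight (-0.02). Against the stroke isotype library, the anti-VCAM1 ratios were 0.11, 0.14 and 0.16 and the anti-VLA4 ratios 0.11, 0.14 and 0.12 for C1qa, C1qb and C1qc. Both antibody comparisons share the stroke isotype library as their control. None of these 9 values passed the 1.5-fold threshold. In border-macrophage-like cells the ratios were also below it, and those furthest from 0 were for C1qc, at -0.20 (-0.28 to -0.12) in stroke and 0.26 (0.17 to 0.35) with anti-VLA4. Without the shared barcodes the stroke value was -0.15.

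Of the 6 complement genes measured in microglia-like cells in the stroke comparison, 1 was called (C4b), where 6.17% of all genes were. None of 7 was called with anti-VCAM1 (3.88% of all genes) or with anti-VLA4 (5.11%). In border-macrophage-like cells 2 of 7 were called in stroke (C5ar1 and Cd55; 17.3% of all genes), 1 of 7 with anti-VCAM1 (C4b; 23.5%) and 0 of 7 with anti-VLA4 (25.2%). These counts, of 0 to 2 genes among 6 or 7, are too small to be placed above or below the share of all genes. In stroke, the C4b call in microglia-like cells rested on 49 stroke and 7 sham UMIs. In border-macrophage-like cells, the Cd55 call rested on 23 stroke and 4 sham UMIs, and the C5ar1 call on 364 and 400. Both stroke counts were 0 when cells were thinned.

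**Figure D2:**
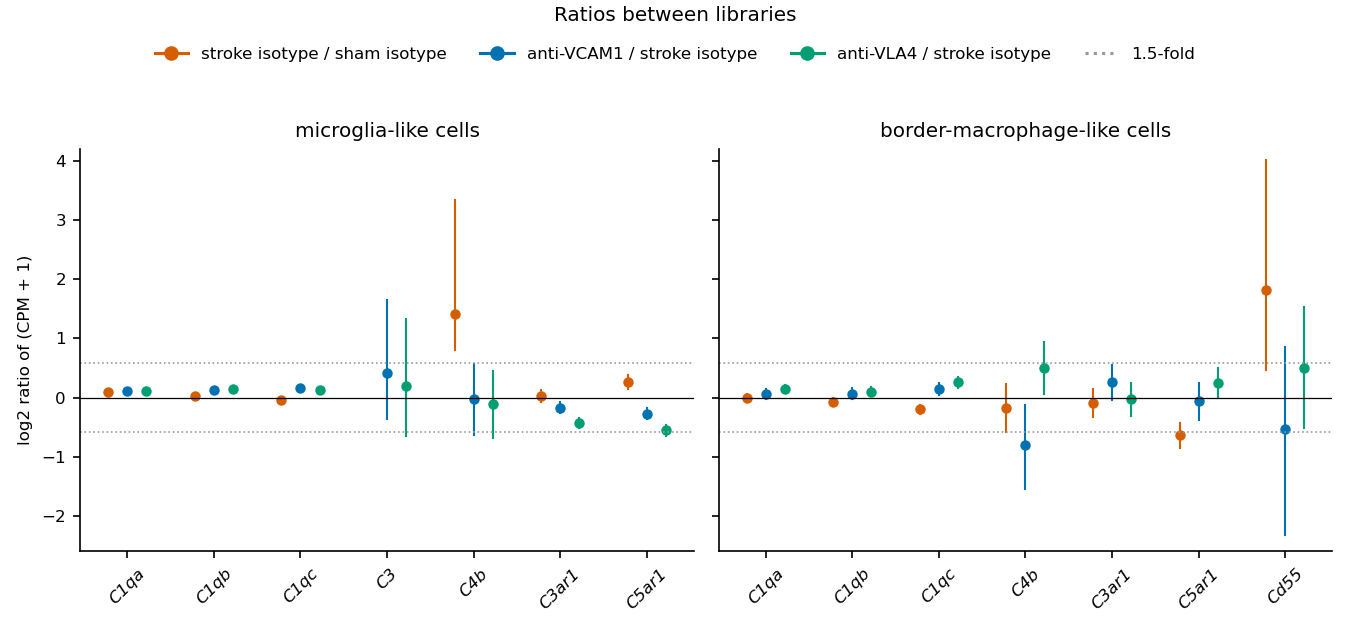
Log2 ratio of CPM + 1 for each complement gene with 20 UMIs or more in the libraries compared, in microglia-like and border-macrophage-like cells; lines are 95% counting intervals and dotted lines mark a 1.5-fold difference. The C1q ratios lie close to 0, and C4b in microglia-like cells (1.41) and Cd55 in border-macrophage-like cells (1.81) are the highest values, both with wide intervals.

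C1q UMIs were rare in endothelial-like cells, and their level there differed several-fold between libraries. C1qa came to 42, 339, 404 and 523 UMIs, or 19.8, 139.7, 45.9 and 42.2 CPM. The stroke isotype library stood above the other 3, and the sham isotype library was the lowest. The log2 ratio was 2.76 (2.35 to 3.32) in stroke, -1.59 (-1.82 to -1.39) with anti-VCAM1, and -1.70 (-1.93 to -1.53) when anti-VLA4 was given. C1qb was at 17.9, 126.1, 45.8 and 39.6 CPM and C1qc at 9.92, 76.3, 24.2 and 24.3 CPM, in the same pattern. All 3 complement genes measured were called in stroke, where 10.3% of all genes were. With anti-VCAM1 (11.8% of all genes) and with anti-VLA4 (13.4%), 4 of 4 were called, the fourth being C3ar1 (1, 13, 12 and 17 UMIs). C4b with 2, 2, 7 and 1 UMIs, C5ar1 with 1, 2, 10 and 10 and Cd55 with 0, 1, 6 and 8 were too low to be measured there.

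These UMIs were concentrated in few cells in the stroke isotype library, and their level moved with the median of 12 other microglial genes. In the stroke isotype library, 10 of the 564 endothelial-like cells held 69.6% of the C1qa UMIs, against 10.9% to 26.2% in the other libraries. The C1qa UMIs lay in 41, 107, 324 and 415 endothelial-like cells. Relative to its level in microglia-like cells, C1q in endothelial-like cells reached 0.291% to 0.399% in the sham isotype library, 2.29% to 2.74% in the stroke isotype library, 0.650% to 0.907% in the anti-VCAM1 library and 0.671% to 0.782% in the anti-VLA4 library. The medians of 12 other microglial genes were 0.331%, 2.66%, 0.759% and 0.746%. These 12 genes spread widely, from 0.125% to 3.39%, 2.05% to 6.10%, 0.460% to 4.60% and 0.522% to 4.49%, with Cst3 the highest in each library. The C1q percentages thus stood close to the median of these genes in each library. In the unnamed cluster 4, which carried the endothelial markers, they were 0.199% to 0.555%, 0.335% to 0.826%, 0.419% to 0.567% and 0.610% to 0.675%. Of the 12 microglia markers used for naming, 12 were detected in endothelial-like cells of every library, with sums of 802, 1101, 1009 and 994 CPM. This sum differed less between libraries than C1q did, but a sum can rest on few of its genes. It therefore does not show whether each marker moved with C1q. The list holds Sparc, which did not meet the marker rule in microglia-like clusters 6, 8 and 11, and the part of each marker was not tested. With each library's 10 cells of highest count left out, the C1qa ratio in stroke was 1.4995 and with anti-VCAM1 -0.10. With the called doublets kept and the cells clustered anew, which also changed the cells of the class, C1qa in endothelial-like cells was at 66.7, 290.8, 237.3 and 285.8 CPM, and the anti-VLA4 ratio was -0.03. Without the shared barcodes the stroke isotype level was 140.0 CPM.

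**Figure D3:**
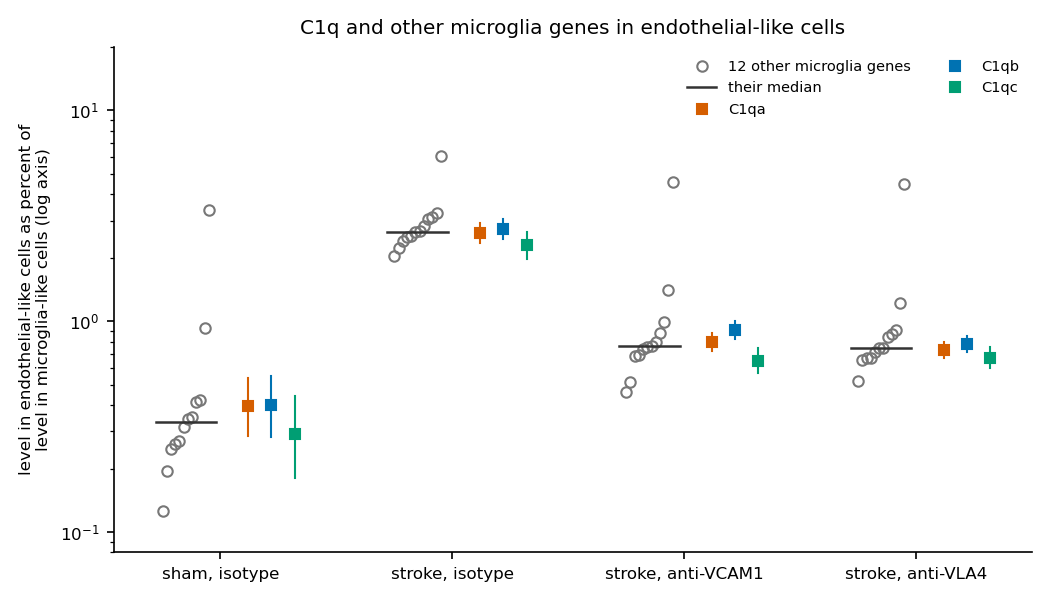
Level of the C1q chains and of 12 other microglial genes in endothelial-like cells, as a percentage of their level in microglia-like cells (log axis), by library; squares are the C1q chains with 95% counting intervals, open circles the other genes and the bar their median. The C1q points lie near the median of the other genes in each library, which is 2.66% in the stroke isotype and 0.331% in the sham isotype library.

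T-cell-like cells showed the same kind of signal in another order of libraries. C1qa was at 846, 254, 893 and 171 CPM, and 10 cells held 98.1%, 86.6%, 94.6% and 79.7% of it. Its log2 ratio was -1.73 (-1.95 to -1.53) in stroke and 1.81 (1.61 to 2.02) with anti-VCAM1. C3ar1 had 25, 9, 14 and 5 UMIs and C5ar1 29, 4, 11 and 4, with stroke log2 ratios of -2.46 (-3.91 to -1.47) and -3.64 (-5.97 to -2.50). All 5 genes measured were called lower in stroke (29.3% of all genes were called), 4 of 4 higher with anti-VCAM1 (21.9%) and 1 of 3, C1qc, lower with anti-VLA4 (21.3%). No C4b UMI was counted there, and Cd55 had 2, 7, 7 and 10. C1q reached 16.8% to 19.0%, 4.71% to 5.18%, 13.5% to 15.6% and 2.86% to 3.87% of the microglia-like level. The other 12 microglial genes had medians of 22.5%, 7.46%, 14.4% and 3.67%, and the 12 microglia markers, all detected in every library, summed to 3337, 1046, 1994 and 470 CPM. Among the 169 B-cell-like cells C1qa ranged from 25.6 CPM in the sham isotype to 2205 CPM in the anti-VCAM1 library. Below border-macrophage-like cells, the ranges of neighbouring classes overlapped all the way down the order of C1q levels.

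C4b, whose product is cleaved by the classical pathway, was a low-level gene of border-macrophage-like and astrocyte-like cells. It lies at chr17:34728380-34743882. Border-macrophage-like cells had 91, 114, 21 and 73 UMIs, or 105.6, 93.3, 53.4 and 132.0 CPM. The anti-VCAM1 library was the lowest, with 21 UMIs in 14 of its 59 cells, and 1 cell of the sham isotype library alone gave 22 UMIs. Log2 ratios were -0.18 (-0.59 to 0.24) in stroke, -0.79 (-1.55 to -0.13) with anti-VCAM1, and 0.50 (0.06 to 0.94) when anti-VLA4 was given. When cells were thinned to 1000 UMIs, the anti-VCAM1 value was -0.39 and the anti-VLA4 value -0.05, and neither passed the threshold. Astrocyte-like cells, only 5, 23, 32 and 41 in number, held 2, 13, 0 and 8 UMIs, which left their range of 0 to 115 CPM overlapping that of border-macrophage-like cells. The near-identical neighbour C4a had 12 UMIs in all kept cells against 517 for C4b, and how reads shared by both were assigned is not given in the sources used here, so these values are uncertain.

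In microglia-like cells C4b was higher in stroke, from a very low level. The libraries held 7, 49, 52 and 65 UMIs, which is 1.37, 5.29, 5.17 and 4.86 CPM. The sham isotype library was the lowest, and the 3 stroke libraries differed little. The stroke log2 ratio was 1.41 (0.80 to 3.34), with -0.03 for anti-VCAM1 and -0.10 for anti-VLA4. Cluster 11 carried much of it: 3 of 7, 24 of 49, 29 of 52 and 38 of 65 UMIs came from that cluster, which made up 2.03%, 7.53%, 7.73% and 8.99% of microglia-like cells. Within cluster 11, C4b was at 24.8, 25.6 and 23.4 CPM in the 3 stroke libraries, and its 14 sham cells were too few for a level. With the microglia-like clusters weighted as in the stroke isotype library, the stroke ratio was 0.64, and with 10 CPM added in place of 1 it was 0.43. Like every stroke ratio so weighted in these cells, the 0.64 used the 14 sham cells of cluster 11 and 3 of cluster 20. It thus rests on levels from too few cells. After thinning to 1000 UMIs too few UMIs remained for a call.

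C3, the protein on which all complement pathways converge, was nearly silent, with 187 UMIs in all kept cells. It lies at chr17:57203970-57228136. Cluster 17 held 18, 35, 29 and 8 of them, at 29.5, 31.1, 63.0 and 32.0 CPM, and so gave 48.1% of the C3 UMIs from 1.62% of the cells. Border-macrophage-like cells had 0, 7, 9 and 9 UMIs, and the 9 of the anti-VCAM1 library came from 1 cell. Microglia-like cells had 4, 15, 25 and 27 UMIs, of which cluster 11 gave 1, 13, 22 and 24. C3 in cluster 11 was thus at 13.5, 19.4 and 14.8 CPM in the stroke libraries. No C3 UMI was counted in endothelial-like, T-cell-like, pericyte-like or astrocyte-like cells. In endothelial-like cells 0 counts allow a level of up to 1.42, 1.24, 0.341 and 0.242 CPM, and in the few astrocyte-like cells only of up to 63.9, 26.6, 33.0 and 17.4 CPM. The RefSeq promoter of C3 held TTGCNNAA, a core of C/EBP sites, at bases -45 to -38, as did 10.8% of all promoters on either strand.

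The receptors for C3a and C5a were genes of both macrophage classes. C3ar1 stood at 312, 293, 351 and 287 CPM in border-macrophage-like cells and at 229, 233, 207 and 173 CPM in microglia-like cells. C5ar1 stood at 464, 298, 285 and 354 CPM against 171, 206, 170 and 140 CPM. For both genes all 4 border-macrophage-like values lay above all 4 microglia-like values, where 11.5% of all genes did. At a coarser clustering, which put 675 cells in place of 460 in the border-macrophage-like class, that class was the higher in 1 of 4 libraries for C3ar1 and in 2 of 4 for C5ar1. The next class, cluster 17, reached at most 70.4 CPM of C3ar1 and 96.0 CPM of C5ar1 and did not overlap microglia-like cells. At 1000 UMIs per cell, C3ar1 was seen in 19.5%, 19.2%, 17.01% and 13.4% of microglia-like cells, against 2.78%, 0.826%, 1.87% and 0.510% of T-cell-like cells. C5ar1 was seen in 14.6%, 14.8%, 12.8% and 10.8%, against 1.39%, 0%, 1.87% and 0.510% (0 of 242 T-cell-like cells allows up to 1.24%).

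Both receptor genes lie on minus strands, C3ar1 at chr6:122847138-122856161 and C5ar1 at chr7:16246743-16259540. Their RefSeq promoters (chr6:122856108-122856407 and chr7:16259289-16259588) are shown because each receptor was the other's nearest gene over cell classes but not over microglia-like clusters. Capitals mark TGANTCA, the site of AP-1, a factor built from Fos and Jun proteins.
C3ar1: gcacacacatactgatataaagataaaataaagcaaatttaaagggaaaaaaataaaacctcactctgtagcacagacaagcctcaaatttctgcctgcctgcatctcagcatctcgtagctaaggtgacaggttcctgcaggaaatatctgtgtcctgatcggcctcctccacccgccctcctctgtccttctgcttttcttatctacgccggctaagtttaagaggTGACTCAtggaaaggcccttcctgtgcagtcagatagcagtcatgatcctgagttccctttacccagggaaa
C5ar1: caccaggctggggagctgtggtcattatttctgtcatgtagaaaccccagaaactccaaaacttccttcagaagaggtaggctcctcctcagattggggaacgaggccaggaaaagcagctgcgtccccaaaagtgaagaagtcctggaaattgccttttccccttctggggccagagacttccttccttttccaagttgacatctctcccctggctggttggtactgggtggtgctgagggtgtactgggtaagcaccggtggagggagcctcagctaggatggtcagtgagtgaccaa
The match in C3ar1 covered bases -22 to -16, and 7.81% of all promoters held these letters. The window of C5ar1 held none of the 4 motifs searched on both strands, which were those named here for PU.1, AP-1 and C/EBP and the interferon-stimulated response element (in 3.44% of promoters).

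C3ar1 in microglia-like cells was lowest with anti-VLA4. Its log2 ratio was 0.02 (-0.08 to 0.13) in stroke, -0.17 (-0.26 to -0.08) with anti-VCAM1, and -0.43 (-0.51 to -0.34) when anti-VLA4 was given, none past 1.5-fold. The anti-VLA4 ratio was below 0 in 7 of 7 microglia-like clusters, from -0.75 to -0.01, with 4 intervals below 0. Weighting the clusters as in the stroke isotype library gave -0.21. Thinning cells to 1000 UMIs gave -0.61, which passed 1.5-fold, the only 1 of 22 alternative settings to do so. In border-macrophage-like cells the ratios were -0.09, 0.26 and -0.03, and each interval spanned 0.

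C5ar1 in microglia-like cells was highest in the stroke isotype library and also lowest in the anti-VLA4 library. Its log2 ratio was 0.26 (0.15 to 0.38) in stroke, -0.27 (-0.37 to -0.18) with anti-VCAM1, and -0.55 (-0.64 to -0.46) when anti-VLA4 was given, all under the threshold. Of 22 alternative settings, 5 put the anti-VLA4 ratio of C5ar1 past 1.5-fold, the furthest at -0.73 without cluster 2. Unlike C3ar1, its anti-VLA4 ratio lay on both sides of 0 within clusters, from -0.20 to 0.11 over 6 clusters with no interval apart from 0. With clusters weighted as in the stroke isotype library it was -0.06, and the anti-VCAM1 ratio was -0.08. The stroke ratio was 0.30 under that weighting, with cluster 7 at 0.52 (0.35 to 0.69), cluster 8 at 0.55 (0.20 to 0.91) and cluster 6 at -1.46 (-2.11 to -0.85).

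Of the 3 clusters with most C5ar1, clusters 7 and 8 were a smaller part of the microglia-like cells in the antibody libraries and cluster 11 was not. C5ar1 was at 212 to 305 CPM in cluster 7, 220 to 346 CPM in cluster 8 and 202 to 299 CPM in cluster 11, which held the highest value of the anti-VCAM1 library. It was at 140 to 159 CPM in cluster 2, against 80.0 to 92.1 CPM in cluster 0 and 70.9 to 213 CPM in cluster 6. Clusters 7 and 8 together made up 45.9%, 40.6%, 25.2% and 14.4% of microglia-like cells, and clusters 0 and 6 made up 27.4%, 28.2%, 41.9% and 55.4%. Cluster 11 made up 7.53%, 7.73% and 8.99% in the 3 stroke libraries. Clusters 7 and 8 also had high levels of 15 immediate early and heat shock genes, a list chosen after the data were seen, which tissue dissociation is known to induce. The list summed to 19819 to 21860 CPM in cluster 7 and 14058 to 16980 CPM in cluster 8. It also came to 12585 to 14744 CPM in cluster 2, where C5ar1 was lower, and to 9372 to 11695 CPM in cluster 11, where C5ar1 was high, against 4121 to 6562 CPM in cluster 0 and 4869 to 7958 CPM in cluster 6. Over all microglia-like cells it summed to 16063, 13476, 10703 and 9306 CPM, with 15 of 15 genes detected in every library. Its part in the receptor values was not tested.

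**Figure D4:**
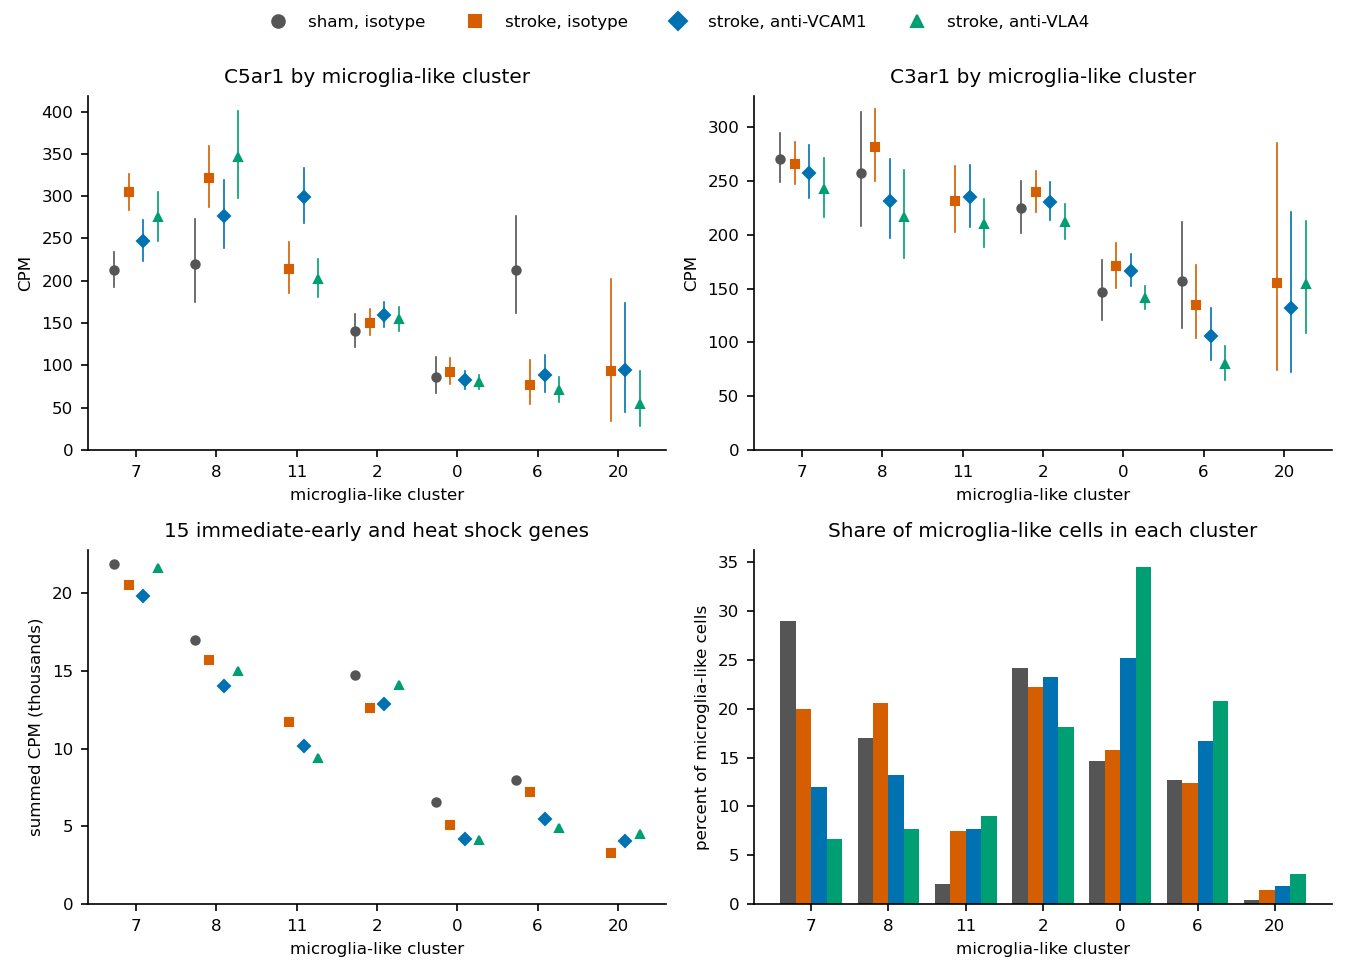
For each microglia-like cluster and library, the level of C5ar1 and of C3ar1 (CPM, with 95% counting intervals), the summed level of the 15 immediate early and heat shock genes (axis in units of 1000 CPM) and the share of microglia-like cells in the cluster (percent). C5ar1 is high in clusters 7 and 8 (212 to 346 CPM) and in cluster 11 (202 to 299 CPM), and clusters 7 and 8 are 45.9% of microglia-like cells in the sham isotype and 14.4% in the stroke anti-VLA4 library.

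In border-macrophage-like cells C5ar1 was lower in stroke, going from 400 UMIs in 115 cells to 364 UMIs in 192 cells. The log2 ratio was -0.64 (-0.85 to -0.43), and it was -0.80 without the shared barcodes. With cells thinned to 1000 UMIs it was -0.25 and with every cell given the same weight -0.43, both short of 1.5-fold. The ratios with anti-VCAM1 and anti-VLA4 were -0.06 and 0.25, with intervals that spanned 0.

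Cd55, the decay-accelerating factor of the cell surface, was a gene of B-cell-like cells. They held 37, 89, 38 and 49 UMIs, or 474, 167, 262 and 232 CPM, and 67.6% of all 315 Cd55 UMIs in 1.11% of the cells. No other class overlapped this range. The sham isotype value was the highest but came from 15 cells, and the B-cell-like cells were too few for a comparison between groups. Border-macrophage-like cells held 4, 23, 5 and 15 UMIs, with a stroke log2 ratio of 1.81 (0.47 to 4.01) that rested on 4 sham and 9 stroke cells. Microglia-like cells held no Cd55 UMI in 6434 cells, which allows up to 0.588, 0.324, 0.298 and 0.224 CPM. The neighbouring copy Cd55b had 4 UMIs.

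Serping1, which encodes the inhibitor of the C1 proteases, was seen mainly in pericyte-like cells. Of its 68 UMIs, 43 fell there, as 3, 2, 20 and 18 UMIs or 93.3, 34.0, 51.4 and 29.9 CPM, in 10, 13, 55 and 90 cells. A further 13 were in the unnamed cluster 13, which carried endothelial and pericyte markers. No Serping1 UMI was counted in endothelial-like, T-cell-like, B-cell-like or astrocyte-like cells. Microglia-like cells had 1 UMI and border-macrophage-like cells 6 UMIs, all in the sham isotype library.

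Of the wider list, 18 genes were measured in microglia-like cells in the stroke comparison and 4 were called, with Colec12, Clu and Itgax higher and Cr2 lower. With anti-VCAM1 3 of 20 were called lower (C1ra, C2 and Clu), and with anti-VLA4 3 of 23 higher (Cd59a, Vtn and Cd93). Of all genes, 6.17%, 3.88% and 5.11% were called in the 3 comparisons. Each of these calls rested on 63 UMIs or fewer over the libraries compared. Vtn and Colec12 are pericyte genes in these data, at 8732 to 12156 and 408 to 839 CPM in pericyte-like cells, and Clu was at 1307 to 3453 CPM in astrocyte-like cells. Cd59a and Cd93 are endothelial genes here, at 199 to 233 and 215 to 261 CPM in endothelial-like cells. The 14 endothelial markers summed to 287, 297, 422 and 478 CPM in microglia-like cells, and their part in these calls was not tested. Vtn was left out of the markers that named the pericyte-like cells.

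Among the more abundant genes of the list in microglia-like cells, Csmd3, a large transmembrane protein with complement control domains, was at 3153 CPM in the sham isotype and 2458 CPM in the stroke isotype library. Its log2 ratio was -0.36 (-0.39 to -0.33), below 0 in 5 of 5 clusters and under the threshold. With anti-VCAM1 it was 0.16 and in 6 of 7 clusters above 0. The anti-VLA4 ratio of Csmd3 was above 0 in 7 of 7 clusters, from 0.09 to 0.73. Cr1l, a mouse regulator of C3 and C4 activation, had 0.34 (0.21 to 0.47) with anti-VLA4. Within clusters this Cr1l ratio was above 0 in 6 of 7, from -0.21 to 1.26, and every interval spanned 0. Itgam, a chain of complement receptor 3, was at -0.15, -0.02 and 0.00, and C5ar2, the second C5a receptor, at -0.17, -0.02 and -0.01.

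In endothelial-like cells 2 of 11 genes of the wider list were called in stroke, both higher (Csmd3 and Itgam). With anti-VCAM1 3 of 14 were lower, Csmd3 and Itgam among them, and with anti-VLA4 5 of 16, which also held Itgb2 and Lrp1. The shares of all genes called in endothelial-like cells were 10.3% in stroke, 11.8% with anti-VCAM1 and 13.4% with anti-VLA4. Csmd3 and Itgam are microglia-like genes here, and in endothelial-like cells they had 84 and 31 UMIs in the stroke isotype library against 7 and 1 in the sham isotype library. TMM size factors raised all endothelial-like ratios by 0.11 with anti-VCAM1 and by 0.15 with anti-VLA4.

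The surface regulators Cd59a, Cd93, Cr1l and Cd46 stayed under 1.5-fold in endothelial-like cells. Cd59a, which blocks the membrane attack complex, was at 200 CPM in both isotype libraries and had ratios of 0.22 (0.08 to 0.37) with anti-VCAM1 and 0.09 with anti-VLA4. Within clusters the anti-VCAM1 ratio of Cd59a was above 0 in 7 of 7, from 0.01 to 1.52, with 2 intervals above 0. In clusters 1, 3 and 5 it was 0.06, 0.06 and 0.08, and each interval spanned 0. Cluster 1 made up 3.96%, 9.93%, 31.5% and 34.4% of endothelial-like cells. It held 254 CPM of Cd59a in the stroke isotype library, against 201 CPM in cluster 3. The part of this make-up in the class ratio was not tested. Cd93, a receptor once taken for a C1q receptor, had 0.08, -0.11 and -0.28. Cr1l was at -0.27 (-0.48 to -0.06) in stroke and -0.06 in both antibody comparisons, and Cd46, a cofactor for C3b cleavage, at -0.37 in both.

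The genes most like each complement gene were ranked by Pearson correlation of log2 (CPM + 1) over 25 sums of a class in a library, among 12470 genes. These points share libraries, depth and cell numbers, so the values are descriptions. The 3 C1q chains were each other's nearest genes (r of 0.993 to 0.998), followed by Pld4 (0.989 to 0.993). C3ar1 and C5ar1 were nearest to each other (0.957), then to Tbxas1 and Lacc1 for C3ar1 and Dleu2 and Nlrp3 for C5ar1. Serping1 ran with Gpc3, Carmn and Slc38a11 (0.917 to 0.963), and Cd55 with Napsa, Cmah and Cxcr4 (0.883 to 0.936). C3 and C4b had no gene above 0.85, with Igf1 (0.796) and Tmcc1 (0.844) at the top. Over 26 sums of a microglia-like cluster in a library, C1qa was nearest to C1qb and then Trem2 and Ctss, at 0.995 to 0.996. There the receptors were no longer each other's nearest genes: C3ar1 was nearest to Herpud1 (0.900), with Nfkbia at 0.888, and C5ar1 to Nr4a3, Plekho2 and Ppp1r15a (0.903 to 0.910).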

How the data were processed

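The deposited values were raw counts: UMIs per gene and cell barcode in 10x matrices, 1 per library, whose file headers name Cell Ranger 7.0.1. Per the submitters' processing notes, Cell Ranger 6.0.0, Seurat 4.3.0.1 and the builds mm10 and GRCh38 were used, with no role stated. Libraries were made with Chromium 3′ v3.1 reagents for a target of 10000 cells, per the labels' protocols, without naming the stained fractions that were sorted.

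From these counts, barcodes with at least 500 UMIs, 200 genes and at most 10% mitochondrial UMIs were kept, and 11, 24, 63 and 124 doublets called with Scrublet in scanpy 1.11.5 (in the order sham isotype, stroke isotype, stroke anti-VCAM1, stroke anti-VLA4) were left out. Cells were clustered on 2000 variable genes, 30 components and Leiden resolution 1 without 59 complement genes. A cluster took the class with the largest share of markers detected in at least 25% of its cells and at log2 fold 1 or more, with at least 3 such markers. It stayed unnamed if another class had 4 or more such markers. The same held if another class had markers, and no fewer than its own class, among its 10 leading genes. Clusters much shallower than their libraries and with none of their own markers among those genes were also to stay unnamed. This naming rule was settled after the clusters were seen. Summed counts of each class in each library were expressed as CPM, with exact Poisson intervals for levels, conditional binomial intervals for ratios and Clopper-Pearson intervals for shares, all at 95%. No test was made and no p-value is given, as each group has 1 library. A gene counted as measured with 20 UMIs over the libraries compared, and as called past 1.5-fold. Comparisons were made for classes that held 50 cells or more in every library.

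The complement genes and all lists were chosen with earlier results of these data known. All 9 complement genes are named in every class compared. Of the wider list, the text names the 3 highest and 3 lowest ratios with at least 200 UMIs in microglia-like and endothelial-like cells, the genes called, and the genes of highest level per class; some of the latter are left out for length, and some genes that these rules pick are not reported here. Genes are placed with the GENCODE M21 annotation of GRCm38, and promoters are from RefSeq (GRCm38.p6). Alternatives covered the cell filter, doublets, clustering, naming, thinning, weighting, scaling (TMM from edgeR 4.0.16, and median-of-ratios), the added CPM, the UMI minimum and the fold.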

Additional observations from a re-analysis of the deposited data

Results flagged for a closer look

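Pairs of classes whose ratios lay apart on opposite sides of 0 in the same comparison are given here as values. With 1 library per group, none of these differences between classes was tested. For C1qa the log2 ratio in stroke was 2.76 in endothelial-like and -1.73 in T-cell-like cells, and with anti-VCAM1 it was -1.59 and 1.81. For C1qb the values were 2.75 and -1.67 in stroke and -1.44 and 1.72 with anti-VCAM1. For C1qc they were 2.82 and -2.05 in stroke and -1.62 and 1.68 with anti-VCAM1. C3ar1 with anti-VCAM1 was at -1.43 in endothelial-like cells (12 and 13 UMIs) and 1.68 in T-cell-like cells (14 and 9 UMIs). In both classes 10 cells held 69.6% or more of the stroke isotype C1qa UMIs.

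Between the macrophage classes, C1qb in stroke was at 0.030 in microglia-like and -0.077 in border-macrophage-like cells, both small. C5ar1 in stroke was at 0.26 in microglia-like and -0.64 in border-macrophage-like cells, the latter from 400 and 364 UMIs.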

How the results depend on the processing

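Of 987 ratios of complement genes recomputed under the alternatives, over 52 results, 757 stayed within the 95% counting interval of the reported value, 223 left it and 7 of called genes changed sign. The 7 were all in endothelial-like cells. Without the 10 cells of highest count in each library, anti-VCAM1 ratios became 0.0041 for C1qb, 0.49 for C1qc and 0.16 for C3ar1, and anti-VLA4 ratios 0.52 for C1qc and 0.57 for C3ar1. With doublets kept and cells clustered anew, the anti-VLA4 ratios were 0.0041 for C1qb and 0.035 for C1qc.

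Counts of complement genes called moved as follows, against the reported counts. With cells thinned to 1000 UMIs they were 0 in stroke and 3 with anti-VLA4 in microglia-like cells, 0 in stroke and 1 with anti-VLA4 in border-macrophage-like cells, and 2 with anti-VCAM1 in endothelial-like cells. A minimum of 200 UMIs gave 0 in stroke in microglia-like cells, and 1 in stroke and 0 with anti-VCAM1 in border-macrophage-like cells. A minimum of 1 UMI gave 4, 2 and 1 in the 3 comparisons of border-macrophage-like cells, and a 2-fold threshold 1 in stroke and 0 with anti-VCAM1. Equal weight for each cell gave 1 with anti-VCAM1 in microglia-like cells, and 1 in stroke and 1 with anti-VLA4 in border-macrophage-like cells. Naming each cell on its own markers gave 1 in stroke and 3 with anti-VCAM1 in border-macrophage-like cells and 2 with anti-VLA4 in endothelial-like cells. Resolution 0.5 gave 3 with each antibody in border-macrophage-like cells. With doublets kept and cells clustered anew, endothelial-like cells had 1 with anti-VCAM1 and 0 with anti-VLA4. At resolution 0.5, border-macrophage-like cells were above microglia-like cells in 1 of 4 libraries for C3ar1 and 2 of 4 for C5ar1.

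For the wider list, in the order stroke, anti-VCAM1, anti-VLA4, microglia-like counts were 1, 1 and 1 when each cell was named by itself, 0, 0 and 1 with thinning, 0, 0 and 0 at 200 UMIs, and 2, 0 and 1 at 2-fold. Endothelial-like counts were 12, 9 and 10 at 1 UMI and 0, 1 and 1 at 200 UMIs. In stroke they were 4 with doublets kept and cells clustered anew, 4 with a total that left out mitochondrial, ribosomal protein and haemoglobin genes and Malat1, and 1 with thinning. With anti-VCAM1 the count was 5 at resolution 0.5. With anti-VLA4 it was 2 with cells named on their own markers, 3 with thinning, 2 with equal weight for each cell and 2 at 2-fold. The cause of these shifts was not tested, other than that a higher minimum or fold leaves fewer genes to call. Leaving out shared barcodes, leaving out the 10 cells of highest count, counting cluster 4 as endothelial-like and weighting the clusters were chosen after seeing the data. No paired analysis was possible because each group has 1 library. Depth limited C3, Cd55 and Serping1 most, with 68 to 315 UMIs in all cells.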
